A study of Neurospora crassa with 94 samples.

Results

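The 4 genes described here serve phosphate acquisition in the filamentous fungus Neurospora crassa: pho-4 (NCU09564), pho-5 (NCU08325), pho-2 (NCU01376) and nuc-1 (NCU09315). They were taken by symbol and locus tag, 4 of the 10397 genes measured by RNA-seq. pho-4 was picked for its low level in iaf-2 libraries of series 111, and the other 3 as genes of the same pathway. Every value of these genes in iaf-2 against wild type (WT) of that series, and of pho-4 in any comparison that uses series 111, is therefore a description with no test.

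Fungi draw inorganic phosphate from the medium through plasma membrane carriers and free it from organic compounds with secreted and periplasmic phosphatases. pho-4 encodes a high-affinity sodium-dependent phosphate symporter, pho-5 a high-affinity proton-coupled phosphate symporter and pho-2 the phosphate-repressible alkaline phosphatase. nuc-1 encodes the basic helix-loop-helix transcription factor that switches these genes on when phosphate is scarce. With ample phosphate the cyclin PREG and its kinase partner PGOV hold NUC-1 inactive, and on starvation the relay protein NUC-2 relieves that block.

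The series compared strains lacking parts of the ISWI chromatin remodeler, or the methyltransferase SET-7 of Polycomb repressive complex PRC2, with WT, in mycelial cultures kept in constant light. isw is the ATPase of the remodeler, and acf, iaf-1 and iaf-2 encode its partner proteins. The library series are named by the number that opens each label. Series 111 held acf, iaf-1, iaf-2 and WT. Series 112 held set-7, acf, the triple mutant acf iaf-1 iaf-2 and WT. Series 118 held isw, acf iaf-1, acf iaf-2, iaf-1 iaf-2, acf iaf-1 iaf-2 and WT. Each group had 3 libraries, except iaf-1 iaf-2 with 2. The sources used here do not give the phosphate content of the medium, the mating types of the strains or the number of isolates per genotype.

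The library totals were 5332503 to 9021398 reads (series 111), 5652592 to 22582163 reads (series 112) and 11711993 to 21973649 reads (series 118). The deleted iaf-1 gene (NCU00412) averaged at most 0.551 TPM (a level corrected for gene length) and the deleted iaf-2 gene (NCU09388) at most 0.378 TPM in every group said to lack them, against 16.6 to 38.8 TPM and 8.00 to 28.6 TPM in WT groups. The isw gene, crf4-1, averaged 2.12 ± 0.45 TPM in isw and 33.0 ± 3.3 TPM in WT (SD, n = 3 each). The acf gene, crf4-2, went against its label: it averaged 90.6 ± 5.2 TPM in the libraries labelled acf and 19.1 ± 2.0 TPM in WT of series 111, and 30.8 ± 3.4 TPM in the libraries labelled acf and 12.8 ± 2.8 TPM in WT of series 112 (SD, n = 3 each). It was also called higher than WT in every other group said to lack acf: it averaged 26.1 TPM in the triple mutant and 12.8 TPM in WT of series 112, and 25.1 TPM in acf iaf-1, 24.6 TPM in acf iaf-2 and 26.8 TPM in the triple mutant, against 14.9 TPM in WT, in series 118. The rise was not particular to these groups: in isw, which is not said to lack acf, crf4-2 averaged 43.0 TPM and was also called higher. So no group said to lack acf had its label checked by a loss of reads, and double and triple mutants are named here by their labels. set-7 averaged 1.50 ± 0.17 TPM in the libraries labelled set-7 and 2.56 ± 0.59 TPM in WT (SD, n = 3 each). It was called lower there (log2 fold change -0.65; edgeR, adjusted p = 0.0423), but the fall was partial, so its label was not checked by a full loss of reads. Each group of series 111 held 1 pair of libraries that were close to identical, with a chi-square per degree of freedom of 1.53 to 1.93 where counting noise gives about 1, against 6.93 to 126.71 for every other pair of a group. The pairs were WT replicates 1 and 3, iaf-1 replicates 1 and 3, and replicates 1 and 2 of both iaf-2 and acf. They differed by more than counting noise, which does not show whether they came from separate cultures. The main tests kept them as separate libraries, so these tests may count a technical repeat as a replicate. Series 111 was also fitted with the pairs summed and without the WT pair. Summing the pairs lowered the calls over all genes in iaf-1 from 2299 to 476. The fit without the pair leaves 1 WT library, replicate 2, which is assumed to vary like the libraries of the other groups. In series 118, replicates 2 and 3 of both acf iaf-2 and the triple mutant carry tags from S43 to S48 in their column names. So do both iaf-1 iaf-2 libraries. The labels do not say what these tags mean, and the titles place all libraries of series 118 in the same batch. Calls that rest on acf iaf-2 or the triple mutant are also given from a fit without the tagged libraries. That fit leaves 1 library, replicate 1, in each of these 2 groups, so it takes their spread from the other groups, and iaf-1 iaf-2 could not be tested in it.

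The 3 structural genes had a far wider range of levels than their regulator. Over the 41 libraries pho-4 lay between 2.45 and 257 TPM with a median of 5.19, pho-5 between 0 and 166 TPM with a median of 2.98, and pho-2 between 1.90 and 68.7 TPM with a median of 7.80. nuc-1 lay between 15.4 and 54.2 TPM, with a median of 30.1. The highest library of nuc-1 was 3.53 times its lowest, against 105 times for pho-4 and 36.2 times for pho-2. WT of series 111 had the highest group mean of pho-4, pho-5 and pho-2, and this rested on 2 of its 3 libraries. Levels set across series come from tables that were scaled separately and were compared by a test only between series 111 and 112.

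**Figure D1:**
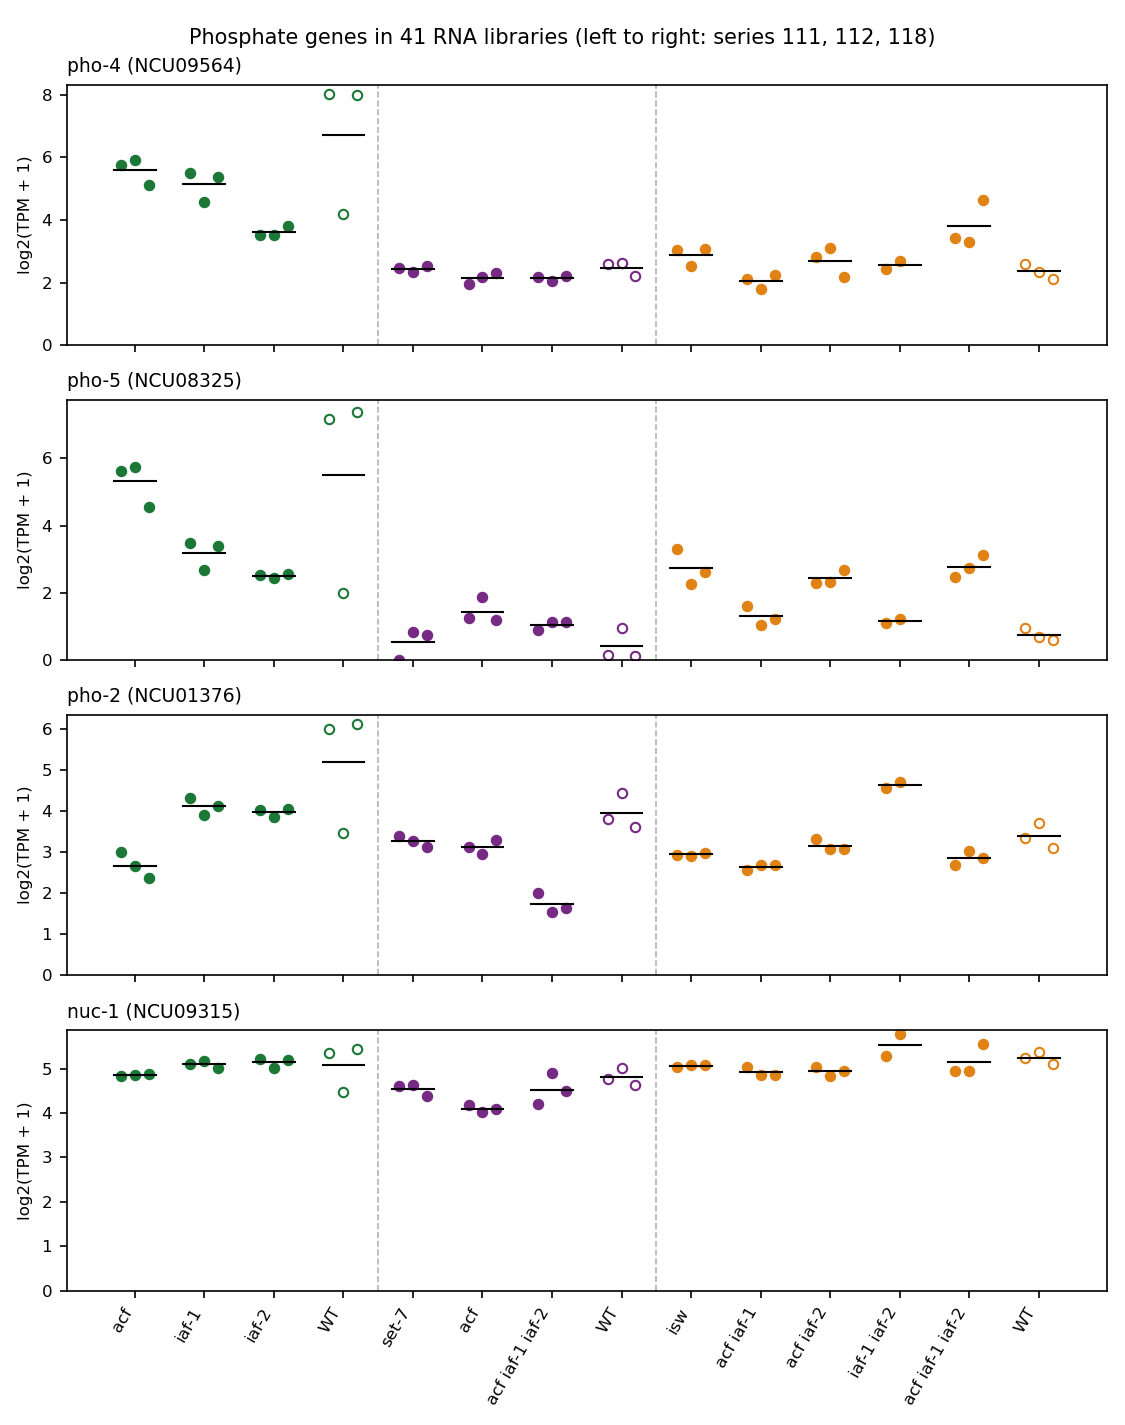
Level of each gene in every library as log2(TPM + 1), by group, with series 111 in green, 112 in purple and 118 in orange. Filled points are mutant libraries, open points WT libraries and bars group means on this scale; WT replicates 1 and 3 of series 111 reach 257 and 252 TPM of pho-4, above every other library, while nuc-1 stays within a 3.53-fold range.

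The WT libraries of series 111 split at these genes. pho-4 had 503 and 491 CPM (reads scaled to the library total alone) in WT replicates 1 and 3, against 37.0 CPM in replicate 2, a ratio of 13.4 between the mean of the pair and replicate 2. pho-5 had 153 and 176 CPM in the pair, against 3.51 CPM in replicate 2, a ratio of 46.9. For ranks, 1 CPM was added to both values before the ratio was taken, which gave log2 ratios of 5.2 for pho-5 and 3.71 for pho-4. Among 7030 genes with a mean of at least 5 CPM, pho-5 was first and pho-4 at rank 2. These ranks are a description only. pho-4 was picked from a contrast that uses these WT libraries, and pho-5 reached the mean of 5 CPM only through the pair. pho-2 had 74.0 and 80.0 CPM in the pair, against 13.0 CPM in replicate 2, a ratio of 5.92 at rank 14. nuc-1 had 61.2 and 65.3 CPM in the pair, against 36.4 CPM in replicate 2, a ratio of 1.74 at rank 836. With 1 CPM added, 36 of the 7030 genes were at least 4-fold higher in the pair and 20 at least 4-fold lower. pho-4, pho-5 and pho-2 were among the 36. Replicate 2 also differed from the pair in the summed level of 9 conidiation markers, chosen to mark asexual spores: 2211 and 2243 TPM in the pair, against 4861 TPM in replicate 2. The sum leans on ccg-1, which had 639 TPM or more in every library and up to 7600 TPM. The other markers reached at most 1480 TPM (con-8). Of the 9 markers 5 were higher in replicate 2 than in both others and 3 lower. con-13, the remaining marker, was at or near 0 throughout, with at most 0.363 TPM in any library. The part of spores in the split was not tested, and in bulk RNA fewer cells of a type and less RNA per cell cannot be told apart.

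**Figure D2:**
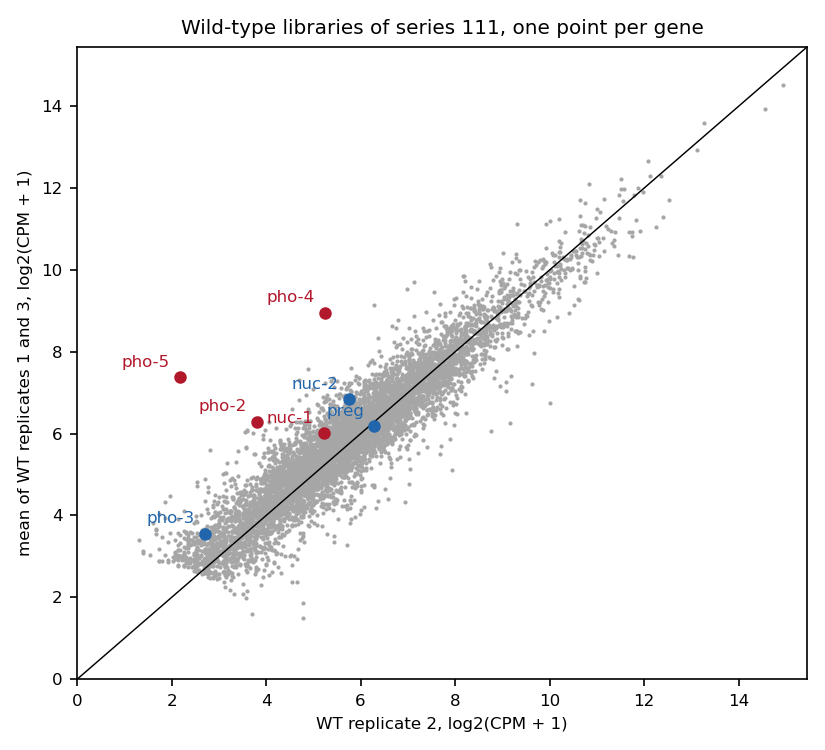
Each grey point is a gene with a mean of at least 5 CPM in WT of series 111; the x axis is WT replicate 2 and the y axis the mean of WT replicates 1 and 3, both as log2(CPM + 1), and the line marks equal values. The phosphate genes are in red and 3 further genes of the pathway in blue. pho-5 and pho-4 lie farthest above the line, at log2 ratios of 5.2 and 3.71 with 1 CPM added. Before that addition they were 46.9 and 13.4 times higher in the pair.

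In iaf-2, pho-4 had 20.3, 20.5 and 24.9 CPM, against 503, 37.0 and 491 CPM in WT of series 111. All 3 iaf-2 libraries lay below all 3 WT libraries. The fitted log2 fold change of iaf-2 over WT was -3.95, the 4th lowest of 7974 genes, behind the deleted iaf-2 gene (-9.04), matA-1 (-8.22), a mating-type gene, and pho-5. Against WT replicate 2 alone, iaf-2 libraries averaged 0.592 times its level, and the fitted log2 fold change without the WT pair was -0.85. pho-5 had 5.10, 4.83 and 5.20 CPM in iaf-2, against 153, 3.51 and 176 CPM in WT, with a log2 fold change of -4.43. Here the iaf-2 libraries stood above WT replicate 2, and the log2 fold change without the WT pair was 0.43. pho-2 had 18.1, 16.2 and 18.1 CPM in iaf-2, against 74.0, 13.0 and 80.0 CPM in WT, with a log2 fold change of -1.66 that became 0.33 without the WT pair. nuc-1 had 56.0, 49.2 and 54.2 CPM in iaf-2, against 61.2, 36.4 and 65.3 CPM in WT, and its log2 fold change was -0.03. Thus 3 of the 4 genes were at least 2-fold lower in iaf-2, where 3.06% of all 7974 genes were, and this contrast is the one that pho-4 was picked from. Without the WT pair only pho-4 kept its sign. With all WT libraries in the fit, matA-1 was almost as far below WT as the deleted gene (-8.22 and -9.04). So iaf-2 and WT also differed at a mating-type gene, and the sources give no mating types. A part of mating type or strain background cannot be told apart from the loss of iaf-2 here and was not tested. The summed conidiation markers, weighted towards ccg-1, lay between 4707 and 4987 TPM in iaf-2 and between 2211 and 4861 TPM in WT. Their part was not tested.

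Outside that contrast, 56 tests of these genes were made and 26 were called. Called here means an adjusted p (Benjamini-Hochberg over all genes tested) under 0.05. The tests in series 111 and between series use the same WT libraries that pho-4 was picked against, so they are not independent of the choice. The pooled count also mixes contrasts in which 9.96% to 66.5% of all genes were called. In series 111, edgeR called pho-2 of the 3 genes tested in acf, where 66% of all genes were called, and pho-5 and pho-2 of 3 in iaf-1, where 28.8% were. In series 112 it called pho-2 of 4 in set-7 (14.1% of all genes), pho-5, pho-2 and nuc-1 of 4 in acf (27.2%) and pho-2 of 4 in the triple mutant (54.9%). In series 118, limma called pho-5 and pho-2 of 4 in isw (48.3%), pho-2 of 4 in acf iaf-1 (31.6%), pho-5 of 4 in acf iaf-2 (24.7%), pho-2 of 4 in iaf-1 iaf-2 (21.5%), and pho-4, pho-5 and pho-2 of 4 in the triple mutant (51.1%). With 3 or 4 genes in a contrast such counts say little beside the shares of all genes, and the values are given gene by gene below.

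**Figure D3:**
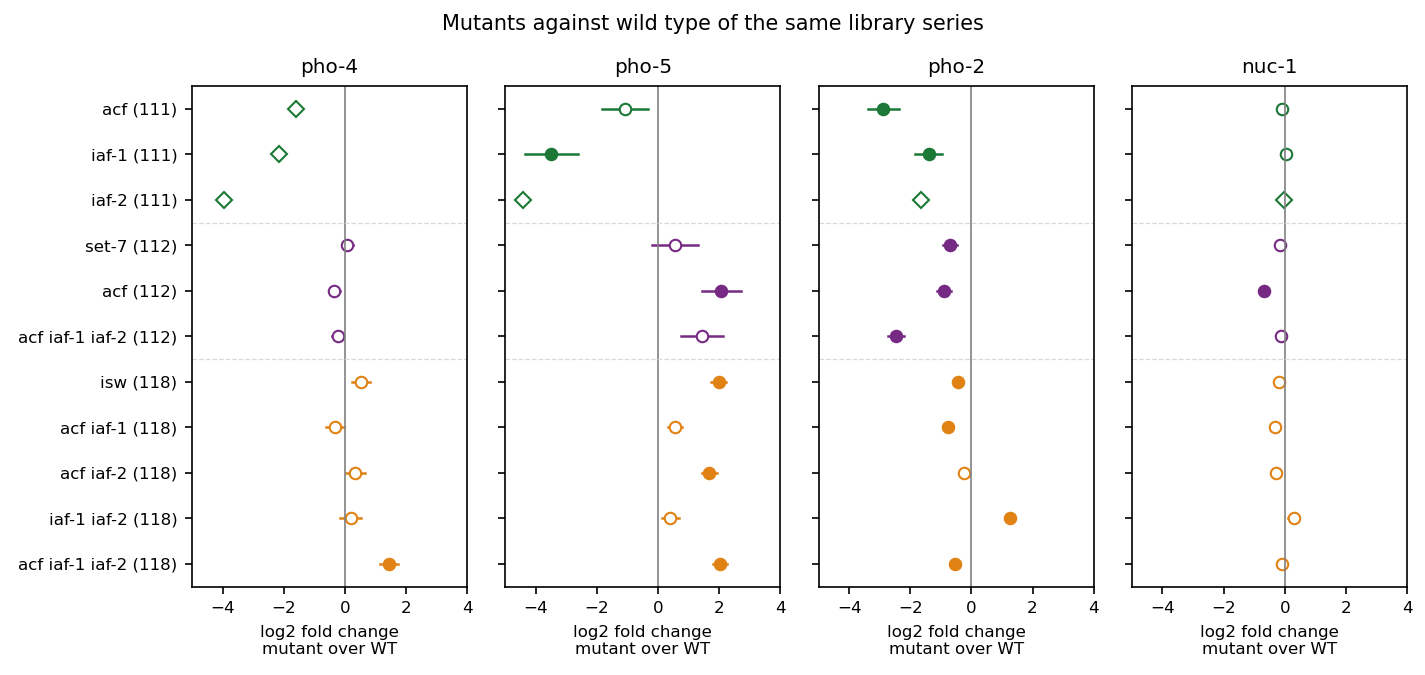
Log2 fold change of each mutant over WT of its own series for pho-4, pho-5, pho-2 and nuc-1, with library series in brackets; bars are standard errors. Filled circles passed the test, open circles did not, and diamonds are values described without a test; series 118 is on the log2(TPM + 1) scale. pho-5 lies left of 0 in series 111 and right of 0 in series 112 and 118, and pho-2 lies right of 0 only in iaf-1 iaf-2.

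pho-4, the sodium-dependent symporter, was higher in a single mutant group of the later series, the triple mutant of series 118. It had 9.76, 8.90 and 24.1 TPM there, against 5.05, 4.10 and 3.36 TPM in WT. Every triple mutant library lay above every WT library, with 14.2 ± 8.5 TPM in the triple mutant and 4.17 ± 0.85 TPM in WT (SD, n = 3 each), and the large SD came from replicate 3. The log2 fold change of log2(TPM + 1) was 1.44 ± 0.30 (SE; limma, adjusted p = 8.72e-04). With replicate 1 as the single triple mutant library, without the S43 to S48 libraries, it was 1.07 (adjusted p = 0.00954). In isw pho-4 had 7.20, 4.75 and 7.33 TPM, 1.54 times the WT mean, and missed the threshold (log2 fold change 0.52 ± 0.30 SE; limma, adjusted p = 0.176), although the same difference passed when only isw and WT were fitted (adjusted p = 0.0395) and without the S43 to S48 libraries (adjusted p = 0.0465). acf iaf-2 had 6.10, 7.55 and 3.55 TPM, iaf-1 iaf-2 had 4.38 and 5.46 TPM and acf iaf-1 had 3.28, 2.45 and 3.73 TPM. These 3 groups overlapped WT and were not called, with log2 fold changes of 0.35, 0.20 and -0.31.

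In series 112, pho-4 was low in every group and no mutant was called. It had 9.73, 8.81 and 10.4 CPM in set-7, 6.19, 7.59 and 8.46 CPM in libraries labelled acf, 7.79, 6.78 and 7.87 CPM in the triple mutant and 10.4, 10.8 and 7.72 CPM in WT. Each mutant overlapped WT. The log2 fold changes were 0.08 ± 0.18 in set-7, -0.35 ± 0.18 in acf and -0.23 ± 0.18 in the triple mutant (SE; edgeR, adjusted p 0.814, 0.167 and 0.295). In series 111, libraries labelled acf had 97.1, 111 and 62.5 CPM and iaf-1 had 86.8, 43.5 and 80.8 CPM, so both groups lay between WT replicate 2 and the WT pair. Their log2 fold changes over WT, given with no test, were -1.60 in acf and -2.15 in iaf-1, and without the WT pair 1.49 in acf and 0.94 in iaf-1. pho-4 overlaps 1 other annotated gene, NCU12035, in the RefSeq table, and since no source used here gives the strand setting of the counting, reads of the overlap cannot be assigned with certainty.

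Ordered by group mean, pho-4 ran from WT of series 111 (176 ± 137 TPM) through acf (48.7 ± 13.3) and iaf-1 (35.9 ± 11.3) of that series to the triple mutant of series 118 (14.2 ± 8.5) and iaf-2 (11.2 ± 1.5), with SD over 3 libraries each. The other 9 groups averaged 3.16 to 6.43 TPM. Each of these 5 groups overlapped its neighbour, and no library of the 9 lower groups reached them.

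pho-5, the proton-coupled symporter, was higher than WT in isw, acf iaf-2 and the triple mutant of series 118 and in libraries labelled acf of series 112, each time from a very low WT level. In WT of series 118 it had 0.948, 0.630 and 0.524 TPM, which came from 32 reads in all 3 libraries. isw had 8.98, 3.78 and 5.23 TPM, 8.56 times the WT mean, and the triple mutant 4.60, 5.64 and 7.83 TPM, 8.59 times the WT mean. acf iaf-2 had 3.91, 4.01 and 5.43 TPM, 6.35 times the WT mean. All libraries of these 3 groups lay above all WT libraries. On the log2(TPM + 1) scale, which understates changes at such low levels, the differences from WT were 1.98 ± 0.24 in isw, 2.03 ± 0.24 in the triple mutant and 1.68 ± 0.24 in acf iaf-2 (SE; limma, adjusted p = 3.33e-06, 2.53e-06 and 4.63e-05). Leaving out any 1 library ended none of these 3 calls. Without the S43 to S48 libraries, the single library left of the triple mutant differed from WT by 1.73 (adjusted p = 0.00201) and that of acf iaf-2 by 1.54 (adjusted p = 0.00847). In isw the summed conidiation markers lay between 1068 and 1494 TPM, below all WT libraries at 1794 to 3685 TPM, but the markers did not move together. Of the 8 tested in isw, con-6 (log2 fold change 3.71) and eas (2.43) were called higher and con-8 (-1.37), csp-1 (-0.98), fl (-0.62) and ccg-1 (-1.42) lower, and their part in the result was not tested.

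acf iaf-1 had 2.05, 1.09 and 1.37 TPM of pho-5 and iaf-1 iaf-2 had 1.14 and 1.34 TPM, above every WT library but by less than the tests required. The differences were 0.55 ± 0.24 for the first and 0.40 ± 0.27 for the other (SE; limma, adjusted p = 0.101 and 0.329). acf iaf-1 was called with a pseudocount of 0.1 (log2 fold change 0.99, adjusted p = 0.0301) and with edgeR on recovered reads (1.06, adjusted p = 0.0496). The direct comparison of the double mutants called pho-5 higher in acf iaf-2 than in acf iaf-1 (1.13 ± 0.24 SE; limma, adjusted p = 0.00727), and without the S43 to S48 libraries, with 1 acf iaf-2 library left, no longer (0.99, adjusted p = 0.19).

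In series 112 pho-5 was close to the limit of detection. WT had 0.128, 1.10 and 0.112 CPM, which were 1, 13 and 1 reads. set-7 had 0, 0.946 and 0.797 CPM, where 0 reads in replicate 1 allow up to 0.531 CPM. The 2 groups overlapped, and set-7 was not called (log2 fold change 0.54 ± 0.75 SE; edgeR, adjusted p = 0.66). Libraries labelled acf had 1.62, 3.12 and 1.50 CPM, all above WT, with a log2 fold change of 2.07 ± 0.64 (SE; edgeR, adjusted p = 0.0264). Leaving out WT replicate 1, WT replicate 3 or acf replicate 2 ended the call (adjusted p = 0.0846, 0.0838 and 0.111), and without WT replicate 2 the log2 fold change became 4.03. The triple mutant had 1.05, 1.39 and 1.42 CPM, overlapping WT replicate 2, and was not called (1.43 ± 0.69 SE; edgeR, adjusted p = 0.092), but passed with DESeq2 (1.59, adjusted p = 0.0475) and without WT replicate 2 (3.39, adjusted p = 0.0084). Summed conidiation markers lay between 4512 and 5987 TPM in libraries labelled acf and between 6447 and 9208 TPM in WT. Of the 8 markers tested there, con-6 was called higher (log2 fold change 2.16) and con-10 lower (-1.22), and their part was not tested.

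In series 111 the same gene was lower in iaf-1 as long as the WT pair was in the fit. iaf-1 had 11.1, 5.62 and 10.4 CPM of pho-5, against 153, 3.51 and 176 CPM in WT, with a log2 fold change of -3.50 ± 0.87 (SE; edgeR, adjusted p = 0.0107). The iaf-1 libraries stood above WT replicate 2, and without the WT pair the log2 fold change was 1.35 (adjusted p = 0.0932). The call was also lost with close pairs summed (-3.20, adjusted p = 0.141), with only iaf-1 and WT fitted (adjusted p = 0.0676) and without iaf-1 replicate 2 (adjusted p = 0.0516). Libraries labelled acf had 49.3, 54.0 and 22.7 CPM and were not called (-1.08 ± 0.76 SE; edgeR, adjusted p = 0.228). Without WT replicate 2 they were called lower (-1.65, adjusted p = 1.10e-04) and without the WT pair called higher (3.77, adjusted p = 1.02e-04), so the direction was set by which WT libraries were used.

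By group mean, pho-5 formed 3 tiers. WT and acf of series 111 had 104 ± 88 and 41.5 ± 16.5 TPM (SD, n = 3 each) and overlapped each other, 5 groups lay between 4.45 and 8.42 TPM, and the other 7 between 0.391 and 1.77 TPM. Apart from WT replicate 2 of series 111, at 2.98 TPM, no library of a tier overlapped another tier. The 5 middle groups were iaf-1 and iaf-2 of series 111 and the triple mutant, isw and acf iaf-2 of series 118, and each overlapped its neighbour. The lowest mean, 0.391 ± 0.497 TPM (SD, n = 3), was WT of series 112.

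pho-2, the alkaline phosphatase, was lower than WT in 8 of the 10 mutant groups tested, higher in iaf-1 iaf-2 and not called in acf iaf-2. One of the 8, iaf-1 of series 111, was lower with the WT pair in the fit and not without it. Its widest fall outside series 111 was in the triple mutant of series 112, with 3.97, 2.43 and 2.73 CPM, against 16.3, 26.0 and 14.6 CPM in WT. All triple mutant libraries lay below all WT libraries, and the log2 fold change was -2.47 ± 0.25 (SE; edgeR, adjusted p = 6.71e-07). Libraries labelled acf of that series had 10.1, 8.69 and 11.3 CPM and set-7 had 12.4, 11.2 and 10.1 CPM, both below all WT libraries. The log2 fold change was -0.89 ± 0.22 in acf and -0.70 ± 0.22 in set-7 (SE; edgeR, adjusted p = 0.00725 and 0.0466). Without WT replicate 2, the highest WT library, neither was called (-0.62, adjusted p = 0.0506, and -0.43, adjusted p = 0.239), and the set-7 call was also lost on leaving out any set-7 library, any library labelled acf or triple mutant replicate 3 (adjusted p 0.0567 to 0.124).

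The triple mutant of series 112 also had less pho-2 than the libraries labelled acf beside it, with a log2 fold change of -1.58 ± 0.24 (SE; edgeR, adjusted p = 8.94e-05), and no single library left out ended that call. In this contrast 2 of the 4 phosphate genes were called, pho-2 and nuc-1, where 48.2% of all genes were.

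In series 118 pho-2 fell to 0.542 times the WT mean in acf iaf-1, 0.654 times in the triple mutant and 0.693 times in isw (TPM). In series 112 it was 0.161 times the WT mean in the triple mutant, 0.529 times in libraries labelled acf and 0.592 times in set-7 (CPM). acf iaf-1 had 4.91, 5.45 and 5.41 TPM, the triple mutant 5.47, 7.24 and 6.33 TPM and isw 6.71, 6.53 and 6.92 TPM, against 9.26, 12.2 and 7.67 TPM in WT. All libraries of these mutants lay below all WT libraries. The differences on the log2(TPM + 1) scale were -0.75 ± 0.15 in acf iaf-1, -0.53 ± 0.15 in the triple mutant and -0.45 ± 0.15 in isw (SE; limma, adjusted p = 8.42e-04, 0.00678 and 0.0188). Without the S43 to S48 libraries the triple mutant, with 1 library left, gave -0.70 (adjusted p = 0.024). The isw call was lost without WT replicate 2 (-0.29, adjusted p = 0.124) or isw replicate 2 (adjusted p = 0.0538). acf iaf-2 had 9.02, 7.45 and 7.42 TPM, overlapped WT and was not called (-0.24 ± 0.15 SE; limma, adjusted p = 0.282).

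iaf-1 iaf-2 stood apart, with 22.9 and 25.5 TPM of pho-2, both above every WT library and 2.50 times the WT mean. The difference was 1.26 ± 0.17 (SE; limma, adjusted p = 2.59e-05), and it was called with either iaf-1 iaf-2 library left out, the remaining one being assumed to vary like the other groups. These 2 libraries had the highest chi-square per degree of freedom of any pair within a group (126.71). Both carry tags from S43 to S48, so strain and whatever the tags stand for cannot be told apart here. In acf iaf-2 the libraries with such tags, replicates 2 and 3, were below replicate 1, and in the triple mutant they were above it. In series 111, iaf-1 had 22.5, 16.0 and 19.5 CPM and iaf-2 the values given above, in both groups above WT replicate 2 (13.0 CPM) and below the WT pair (74.0 and 80.0 CPM), so the direction of either single mutant depended on which WT libraries were used.

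In series 111 pho-2 fell in libraries labelled acf whichever WT libraries were used. They had 7.81, 5.88 and 4.57 CPM, against 74.0, 13.0 and 80.0 CPM in WT, all below WT replicate 2 as well. The log2 fold change was -2.88 ± 0.50 (SE; edgeR, adjusted p = 2.53e-04), it was called under every alternative run, and without the WT pair it was -0.90. In iaf-1 the log2 fold change was -1.40 ± 0.44 (SE; edgeR, adjusted p = 0.0327). That call was lost with close pairs summed (-1.17, adjusted p = 0.253) and on leaving out WT replicate 1, WT replicate 3 or any iaf-1 library (adjusted p 0.0639 to 0.111), and without the WT pair the value was 0.58 (adjusted p = 0.0911).

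Ordered by group mean, pho-2 ran from WT of series 111 (47.4 ± 32.4 TPM) and iaf-1 iaf-2 (24.2 ± 1.8, n = 2) to the triple mutant of series 112 (2.35 ± 0.60, SD, n = 3). The other 11 groups lay between 5.26 and 16.6 TPM. No library of iaf-1 iaf-2 overlapped the next group below, iaf-1 of series 111, and no library of the series 112 triple mutant overlapped the next group above, acf iaf-1.

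nuc-1, which encodes the regulator of the pathway, changed little. Of 10 mutant groups tested 1 was called against WT, the libraries labelled acf of series 112. They had 29.2, 25.9 and 27.2 CPM, against 43.0, 51.4 and 40.7 CPM in WT, all lower than WT. The log2 fold change was -0.68 ± 0.15 (SE; edgeR, adjusted p = 0.00441), and no library left out ended the call. In the triple mutant of the same series nuc-1 had 30.2, 48.9 and 36.3 CPM, overlapped WT and was not called (-0.11 ± 0.15 SE; edgeR, adjusted p = 0.57). Set against the libraries labelled acf, the triple mutant was higher by 0.57 ± 0.15 on the log2 scale (SE; edgeR, adjusted p = 0.00621). set-7 had 40.3, 40.6 and 34.1 CPM, just below all WT libraries, and was not called (-0.16 ± 0.15 SE; edgeR, adjusted p = 0.509).

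In series 111 libraries labelled acf had 39.9, 40.9 and 41.0 CPM of nuc-1 and iaf-1 had 51.8, 52.6 and 49.3 CPM, all within the WT range of 36.4 to 65.3 CPM. Their log2 fold changes were -0.10 ± 0.16 and 0.04 ± 0.16 (SE; edgeR, adjusted p = 0.589 and 0.891). Without the WT pair both were called higher, at 0.38 (adjusted p = 0.0472) in acf and 0.52 (adjusted p = 0.0243) in iaf-1, and without WT replicate 2 acf was called lower (-0.29, adjusted p = 0.0241).

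In series 118 nuc-1 had 31.8, 32.9 and 32.7 TPM in isw, 31.9, 28.1 and 28.1 TPM in acf iaf-1 and 32.1, 27.4 and 30.1 TPM in acf iaf-2. It had 37.7 and 54.2 TPM in iaf-1 iaf-2 and 29.9, 29.9 and 46.3 TPM in the triple mutant, against 36.6, 40.7 and 33.6 TPM in WT. isw, acf iaf-1 and acf iaf-2 lay below all WT libraries, by 1.14 to 1.26 times in the means, and the other 2 mutants overlapped WT. None was called by limma, with log2 fold changes from -0.32 to 0.29, but acf iaf-2 passed after median-ratio scaling of the libraries (-0.37, adjusted p = 0.0474) and with edgeR on recovered reads (-0.38, adjusted p = 0.0366). Group means of nuc-1 lay between 16.2 ± 0.9 TPM in acf of series 112 and 46.0 ± 11.6 TPM in iaf-1 iaf-2 (SD, n = 3 and 2). In the order of the means each group overlapped its neighbour, except acf and set-7 of series 112, whose libraries did not.

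Among mutants of series 118, the triple mutant against acf iaf-1 adds, by label, the loss of iaf-2. acf iaf-2 against acf iaf-1 swaps the loss of iaf-1 for that of iaf-2, so a difference there cannot be assigned to either. Between acf iaf-2 and acf iaf-1, 2 of the 4 genes were called, pho-5 and pho-2, where 9.96% of all genes were. For pho-2 the difference was 0.52 ± 0.15 (SE; limma, adjusted p = 0.0356), which was lost after median-ratio scaling (0.41, adjusted p = 0.0807), with edgeR on recovered reads (0.49, adjusted p = 0.0749) and on leaving out any of the 6 libraries (adjusted p 0.0534 to 0.146), and without the S43 to S48 libraries (0.68, adjusted p = 0.144). The median of all genes was itself 0.11 in this contrast, and after that scaling 0.004. Between the triple mutant and acf iaf-1, pho-4 and pho-5 were called of 4, where 39.4% of all genes were. pho-4 was higher in the triple mutant by 1.75 ± 0.30 and pho-5 by 1.48 ± 0.24 (SE; limma, adjusted p = 2.76e-04 and 1.60e-04), and they were 1.39 and 1.18 (adjusted p = 0.00388 and 0.0358) without the S43 to S48 libraries, with 1 triple mutant library left. pho-2 (0.23 ± 0.15 SE) and nuc-1 (0.23 ± 0.16 SE) were not called there.

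The WT groups themselves differed between library series at these genes. pho-5 averaged 0.391 TPM in WT of series 112 and 0.701 TPM in WT of series 118, against 104 TPM in WT of series 111. pho-4 averaged 4.59 TPM in WT of series 112 and 4.17 TPM in WT of series 118, against 176 TPM in WT of series 111, described with no test. Even WT replicate 2 of series 111, the lowest of that group at 17.2 TPM of pho-4 and 2.98 TPM of pho-5, was above every WT library of the other series. nuc-1 averaged 27.2 TPM in WT of series 112 and 37.0 TPM in WT of series 118, against 34.5 TPM in WT of series 111. In the edgeR fit over both series, WT of series 112 over WT of series 111 gave a log2 fold change of -7.37 ± 1.23 for pho-5 and -1.20 ± 0.45 for pho-2 (SE; adjusted p = 1.59e-04 and 0.0329) and 0.07 ± 0.17 for nuc-1 (SE; adjusted p = 0.721). That is 2 of 3 genes called, where 66.5% of all genes were. Without the WT pair pho-5 was still called (-2.48), while pho-2 was higher in WT of series 112 (0.81, adjusted p = 0.0473). The call of pho-2 was also lost with close pairs summed (-0.90, adjusted p = 0.134) and without WT replicate 1 or 3 of either series (adjusted p 0.095 to 0.142).

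**Figure D4:**
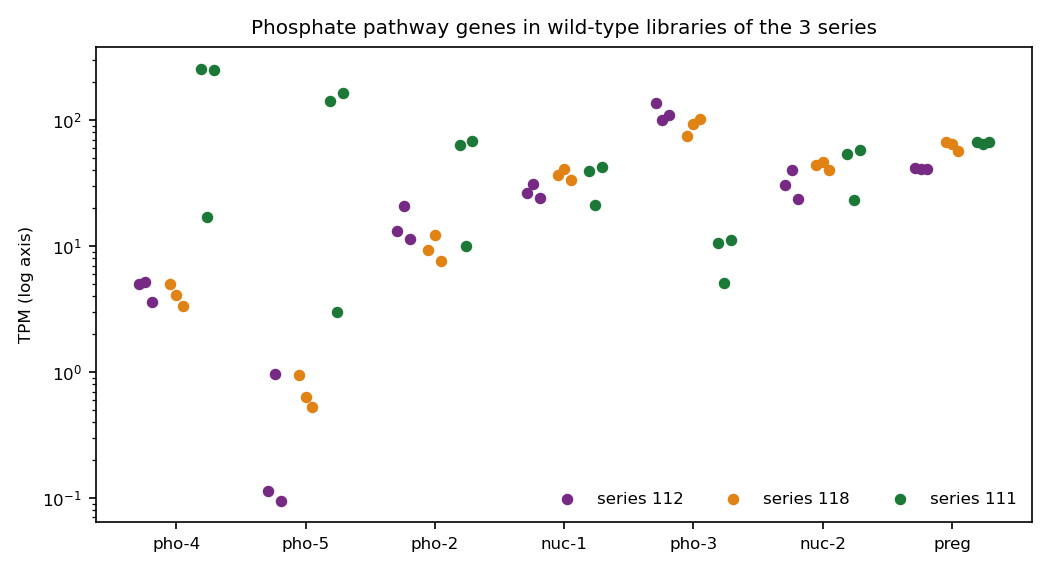
TPM of 7 phosphate pathway genes in each WT library on a log axis, by library series, with 3 points per series. pho-4 and pho-5 of series 111 lie above all WT libraries of series 112 and 118, pho-3 of series 111 lies below them, and nuc-1, nuc-2 and preg differ much less.

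The effect of acf was tested for a difference between the 2 series that hold libraries with that label. Of 3 genes 2 were called, where 47.5% of all genes were. The log2 fold change of pho-2 over WT was higher in series 112 than in series 111 by 1.92 ± 0.69, and that of nuc-1 lower by a log2 difference of -0.66 ± 0.25 (SE; edgeR, adjusted p = 0.0363 and 0.0413). Without the WT pair of series 111 the difference was 0.03 for pho-2 and -1.04 for nuc-1. With close pairs summed neither gene was called (adjusted p = 0.0765 and 0.0608). pho-5 differed by 3.04 ± 1.70 and was not called (SE; edgeR, adjusted p = 0.159), except without WT replicate 2 of series 111 (3.59, adjusted p = 8.62e-04). Its difference turned to -1.72 (adjusted p = 0.187) once the WT pair was left out, and that of pho-4, given with no test, was 1.18 with the pair and -1.82 without it.

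The RefSeq table holds 3 further genes of the pathway by symbol: nuc-2 (NCU11426), the relay protein, preg (NCU01738), the cyclin that holds NUC-1 inactive, and pho-3 (NCU08643), the phosphate-repressible acid phosphatase. Across the 10 tested mutant groups nuc-2 was called lower in 2, pho-3 higher in 3 and lower in 1, and preg in none. pho-3 had 16.7, 18.3 and 16.4 CPM in libraries labelled acf of series 111, against 10.4, 5.56 and 11.0 CPM in WT, and rose (1.24 ± 0.32 SE; edgeR, adjusted p = 0.00455). It had 174, 252 and 227 CPM in the triple mutant of series 112, against 145, 106 and 121 CPM in WT, all higher (0.94 ± 0.15 SE; edgeR, adjusted p = 8.92e-05). In acf of series 111 the value was 1.84 (adjusted p = 0.00539) without the WT pair, while in libraries labelled acf of series 112, where pho-2 fell by 0.89 on the log2 scale, pho-3 was not called (-0.04 ± 0.15 SE; edgeR, adjusted p = 0.87). In series 118 pho-3 rose in acf iaf-1 (0.60 ± 0.20 SE; limma, adjusted p = 0.0296) and fell in isw, with 44.6, 42.3 and 32.6 TPM in isw, against 74.7, 94.1 and 102 TPM in WT (-1.16 ± 0.20 SE; limma, adjusted p = 1.29e-04). Its level in WT went opposite to pho-4 and pho-5 between the series, with 117 TPM in series 112 against 8.97 TPM in series 111, a log2 fold change of 4.12 ± 0.22 (SE; edgeR, adjusted p = 1.20e-08). nuc-2 fell in the triple mutant of series 112 (-0.40 ± 0.13 SE; edgeR, adjusted p = 0.0182). In libraries labelled acf of series 111 it was called lower (-0.66 ± 0.20 SE; edgeR, adjusted p = 0.0127), but this rested on the WT pair, in which nuc-2 was 2.16 times higher than in WT replicate 2: without the pair the log2 fold change was 0.06 (adjusted p = 0.692), and iaf-1 was called higher (0.42, adjusted p = 0.0383). Without the pair preg was called lower in acf of series 111 (-0.41, adjusted p = 0.0253). preg, with group means from 35.1 to 78.8 TPM, was called between WT of series 112 and WT of series 111 (-0.29 ± 0.11 SE; edgeR, adjusted p = 0.0354).

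Within groups pho-4 and pho-5 scattered more than most genes. The pooled within-group SD of log2(TPM + 1) was 0.908 for pho-5 and 0.688 for pho-4, at percentiles 99.3 and 98.3 of 9172 genes, and 0.459 for pho-2 (percentile 94.1), where the median gene had 0.217. nuc-1 had 0.229 (percentile 55.8). Without WT of series 111 the percentiles were 90.7 for pho-5, 88.2 for pho-4, 58.8 for pho-2 and 41.6 for nuc-1, so the symporters stayed among the more variable genes and the phosphatase did not.

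The genes with the most similar pattern were found by Pearson's r of log2(TPM + 1) over the 41 libraries, each gene centred on its mean within a library series, as a description. For pho-4 they were NCU01055 (r = 0.853), pho-5 (0.831) and NCU07966 (0.803), and for pho-5 they were NCU04537 (0.847), pho-4 (0.831) and NCU01055 (0.826). The 2 symporters were thus each other's 2nd closest of 9171 genes, but over the 29 libraries of series 112 and 118 their r was 0.538 and pho-5 ranked 541st for pho-4. NCU07966 was also among the 8 lowest genes in iaf-2 of series 111 (log2 fold change -2.71). For pho-2 the closest genes were NCU01487 (0.867), folC (0.845) and NCU03646 (0.834), with nuc-2 at 0.766 (rank 37), and none of the first 3 was again among its 3 closest without series 111. For nuc-1 they were NCU06196 (0.871), NCU09866 (0.797) and NCU02875 (0.795), and NCU06196 was also first over the 29 libraries (0.866). nuc-1 itself had r of 0.289 with pho-4, 0.025 with pho-5 and 0.538 with pho-2. Libraries of a group share their strain, and those of a series their preparation, so these points are not independent.

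The 4 genes lie on different chromosomes: pho-4 on VII, pho-5 on IV, pho-2 on V and nuc-1 on I. In the gene order of the RefSeq table for assembly NC12 pho-4 was the 259th of 1047 protein-coding genes from the nearer chromosome end, pho-5 the 563rd of 1485, pho-2 the 662nd of 1580 and nuc-1 the 965th of 2347. None was within the outermost genes of a chromosome arm, and apart from pho-4 none overlapped another annotated gene.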

How the data were processed

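Per the labels' protocols, stranded mRNA libraries were made from RNA extracted with Trizol and lithium chloride. Per the submitters' processing notes, HISAT2 2.1.0 and featureCounts (Subread 1.6.2) were used, with trimming by cutadapt 1.14 and Trim Galore 0.4.4 and with SAMtools 1.9 and FastQC, the genome build, annotation and strand setting not given in the sources used here. The authors deposited whole read counts for series 111 and 112 and TPM for series 118; every per-sample column had a sample. The 53 ChIP-seq and MNase-seq samples of the 94 were not analysed here.

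Counts were tested with edgeR 4.0.16 (quasi-likelihood, TMM, filterByExpr, robust), with all groups of a series in the fit. TPM were tested with limma 3.58.1 (trend, robust) on log2(TPM + 1) over genes that reached 1 TPM in 2 or more libraries. Adjusted p is Benjamini-Hochberg over all genes tested, threshold 0.05. All TPM values of the 10087 genes above 0 were whole multiples of a step per gene (100%, tolerance 0.001 reads or 1e-07 of the value), which gave whole reads, library totals and relative gene lengths, and from those TPM for series 111 and 112. An edgeR test on these reads, DESeq2 1.42.0, other scalings, filters and pseudocounts, close pairs summed, a replicate term and each library left out were alternatives. Scripts were tested on simulated data (R 4.3.3, Python 3.11.15).

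The genes and lists were chosen with earlier results of these data known. Named genes are the 4 genes; pathway genes called in at least 2 comparisons or changed at least 2-fold in a called comparison; the deleted genes; and for each gene the 3 with the highest r. Values of preg and the 8 lowest genes in iaf-2 were chosen after they were seen. Of the gene identifiers, 10363 matched the RefSeq table and 34, folC among them, did not. Labels do not say that replicates came from separate cultures, so p-values may measure technical spread only. Floors for 0 reads (3 reads per library) cover counting error only.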

Additional observations from a re-analysis of the deposited data

Results flagged for a closer look

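The effect of the acf label on pho-2 differed between library series by 1.92 on the log2 scale (series 112 minus series 111). It drew attention because the difference between series itself passed its test (edgeR, adjusted p = 0.0363). The log2 fold change over WT was -0.89 in series 112 and -2.88 in series 111, with libraries labelled acf below all WT libraries in both. Without WT replicates 1 and 3 of series 111 the difference was 0.03 (adjusted p = 0.96). The call was also lost with close pairs summed (adjusted p = 0.0765) and on leaving out replicate 1 or 3 of WT in either series, replicate 2 or 3 of acf in series 111, or replicate 1 or 3 of acf in series 112 (adjusted p 0.0559 to 0.0755).

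The effect on nuc-1 differed by -0.66 (edgeR, adjusted p = 0.0413), with a log2 fold change of -0.68 in series 112 and -0.10 in series 111. The call was lost with close pairs summed (adjusted p = 0.0608) and on leaving out any of 10 libraries (adjusted p 0.0508 to 0.117). Of the 12 only WT replicates 2 and 3 of series 111 could be left out without ending the call. Without WT replicates 1 and 3 of series 111 together, the difference was larger, at -1.04.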

How the results depend on the processing

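Of 908 values of single genes with 1 library left out, 856 kept their side of the threshold, 48 lost a call and 4 gained 1; 16 values, none called in either fit, changed sign or reached 0, by at most 0.2 on the log2 scale. Calls ranged from 1 to 5 of 6 tests in series 111 (3 as reported), 3 to 5 of 12 in series 112 (5), 7 to 8 of 20 in series 118 (8), 5 to 6 of 12 between mutants (6), 0 to 3 of 3 for the acf effect between series (2) and 1 to 2 of 3 for WT between series (2). With close pairs summed, 1 call remained in series 111, 0 for the acf effect and 1 for WT between series. Calls over all genes also fell, in iaf-1 from 2299 of 7974 to 476 of 8120. In acf of series 111 they fell from 5265 of 7974 to 4105 of 8120. The acf effect went from 3920 of 8252 to 3513 of 8477 and WT between series from 5491 of 8252 to 5002 of 8477. With only the compared groups fitted, 1 call remained in series 111. Over all genes, those fits called 1640 of 7709 in iaf-1 and 4468 of 7824 in acf. With 1 library of series 111 left out, calls over all genes in iaf-1 ranged from 1544 of 8057 to 3240 of 8059. In series 112 they ranged from 741 to 1585 of 8910 in set-7 and from 1626 of 8842 to 2623 of 8835 in acf. In the triple mutant there they ranged from 4391 of 8859 to 5014 of 8835. In series 118, with 1 library of any group but iaf-1 iaf-2 left out, isw ranged from 3911 of 9334 to 4611 of 9322. The comparison of acf iaf-2 with acf iaf-1 ranged from 498 of 9323 to 1053 of 9322. Without the WT pair of series 111, chosen after seeing the data, 1 call of the acf effect remained and these values changed sign: pho-4 1.49, pho-5 3.77 and nuc-1 0.38 in acf, pho-4 0.94, pho-5 1.35 and pho-2 0.58 in iaf-1, pho-5 0.43, pho-2 0.33 and nuc-1 0.45 in iaf-2, pho-4 -1.82 and pho-5 -1.72 in the acf effect between series, and pho-2 0.81 in WT of series 112 over 111; the WT pair differed from replicate 2 by 46.9 times in pho-5. The cause of the other changes was not tested. Replicate numbers did not pair the libraries: same-numbered libraries had median correlations of -0.003, -0.055 and -0.041 in series 111, 112 and 118. With the replicate block the calls numbered 3, 5 and 8, and calls over all genes went from 2299 to 1985 of 7974 in iaf-1. Over all genes they went from 1235 to 1154 of 8747 in set-7 and from 4513 to 4362 of 9339 in isw. The set-7 call of pho-2 was lost (-0.69, adjusted p = 0.0622) and that of pho-5 in the triple mutant of series 112 gained (1.67, adjusted p = 0.0417). Depth limits pho-5 in series 112, where WT held 15 reads in all.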
